A study of Saccharomyces cerevisiae with 6 samples.

Results

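The region described here is the 3' end of 18S rRNA together with the start of the spacer that follows it in the 35S pre-rRNA of Saccharomyces cerevisiae. It was chosen by position alone, as nucleotides 2330 to 2710 of the transcript, and all 381 nucleotides had values in both strains, of 6542 in the whole transcript. They form 2 pieces. The first holds the last 171 nt of 18S (nucleotides 1630 to 1800), and the second holds the first 210 nt of internal transcribed spacer 1 (ITS1), whose full length is 361 nt. The pieces meet at site D, the 3' end of mature 18S. The far end lies close to site A2, although the deposited annotation starts the 27SA2 pre-rRNA at ITS1 nucleotide 229, which is 19 nt past the last nucleotide described here.

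The study asked how the RNA of early pre-ribosomes is arranged when the assembly factor Mrd1 lacks one of its RNA-binding domains. Pre-ribosomes were purified through TAP-tagged Mrd1 and probed with 1M7, a SHAPE reagent that attacks the ribose 2'-hydroxyl of flexible nucleotides and leaves an adduct at which reverse transcriptase stops. The labels list 6 libraries in 3 groups of 2. Both strains derive from BY4741, and neither group is an unaltered strain. The mutant strain carries TAP-tagged mrd1-deltaRDB5 with the marker K.I.TRP1, taken to mean a protein without the domain RBD5, beside an HA-tagged MRD1 gene driven by the GAL promoter (pGAL-HA-MRD1::URA3). It gave 2 libraries treated with the solvent DMSO and 2 treated with 1M7. The Erb1-depleted strain, called the depleted strain below, carries GAL::3HA-ERB1::KAN, in which the galactose promoter drives the large-subunit assembly factor Erb1, and an intact MRD1-TAP::URA3. It gave 2 libraries treated with 1M7, and no DMSO library is labelled for it. Loss of RBD5 and depletion of Erb1 therefore cannot be told apart in any difference between the strains. The labels name YPD or YPG/R medium.

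The 3' minor domain of 18S forms 2 stem-loops, the long helix 44 and the short helix 45. Helix 44 carries at its base the decoding site, where a pair of adenosines inspects the codon and anticodon in the mature ribosome. Helix 45 ends in a loop with adjacent adenosines that the methyltransferase Dim1 dimethylates, and its stem holds a cytidine acetylated by Kre33. Cleavage at A2 within ITS1 separates the precursors of the small and large subunits, and the endonuclease Nob1 later cuts at site D to release mature 18S.

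The sequences below give both pieces and the 4 stretches on which the results turn. They are RNA, written 5' to 3' as in the deposited sheet, from the ribosomal DNA of chromosome XII. Positions are counted from 1 at the first nucleotide of 18S or of ITS1. Capitals in the whole pieces mark nucleotides modified in both strains (posterior probability of modification of at least 0.95). In the decoding stretch, capitals mark nucleotides called more reactive in the depleted strain. In helix 45 and in the ITS1 hairpin they mark the loop, and across site D they mark ITS1.
18S, U1630 to A1800: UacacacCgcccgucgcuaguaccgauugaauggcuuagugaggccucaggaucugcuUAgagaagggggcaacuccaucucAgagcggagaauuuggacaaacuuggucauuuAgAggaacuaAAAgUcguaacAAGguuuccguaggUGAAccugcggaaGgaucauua
ITS1, A1 to A210: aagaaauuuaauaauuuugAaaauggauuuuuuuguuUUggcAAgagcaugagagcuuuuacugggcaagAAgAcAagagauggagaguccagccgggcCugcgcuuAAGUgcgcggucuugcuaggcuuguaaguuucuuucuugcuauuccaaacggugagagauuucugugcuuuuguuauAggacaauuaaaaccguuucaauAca
Helix 44, U1743 to C1764: uAGAGgaacuAAAAgUCGUAac
Helix 45, U1769 to G1792: uuuccguaggUGAAccugcggaag
Site D, 18S A1791 to ITS1 A10: aggaucauuaAAGAAAUUUA
ITS1 hairpin, G102 to C115: gcgcUUAAGUgcgc

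Each nucleotide has 1 raw reactivity score, 1 normalized score and 1 posterior probability of modification per strain. To normalize, raw scores were multiplied by a strain's own factor and negative scores were set to 0, so a normalized score of 0 stands for any raw score at or below 0. Libraries were not separated in the values, so no spread between replicates, test or p-value could be given, and the depth behind a value is unknown. Comparisons are descriptions of 1 set of values per strain. Intervals on shares (Wilson, 95%) treat nucleotides as independent, although neighbouring nucleotides are alike.

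In the 18S piece, modified nucleotides were a smaller share than over the transcript in both strains, although the mean normalized score was higher. The second strand of the decoding end held 4 of them in the mutant and 8 in the depleted strain, the linker to helix 45 held 3 in either, and the helix 45 loop held 4 in either. The others lay before helix 44, in its body and at the foot of helix 45. In the mutant 21 of 171 nucleotides were modified (12.3%, interval 8.17 to 18), beside 18.5% over the transcript. In the depleted strain 26 were modified (15.2%, 10.6 to 21.3), beside 21.1% over the transcript. Of these, 19 were shared, the mutant alone had 2 and the depleted strain alone 7. The rest of 18S had larger shares, 23.1% of 1629 nucleotides in the mutant (21.2 to 25.3) and 26.7% in the depleted strain (24.6 to 28.9).

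The raw scores of the 18S piece followed each other in both strains, with a Pearson correlation of 0.879 across its 171 nucleotides, which share the primer scheme and sequence and are not replicates. The mean normalized score was 0.353 in the mutant and 0.298 in the depleted strain, beside 0.249 and 0.257 over the transcript. A score of 0 was held by 67 nucleotides (39.2%) in the mutant and 89 (52.0%) in the depleted strain. Over the transcript those shares were 49.1% and 48.7%. Of the modified nucleotides, adenosines were 13 in either strain, of 49 adenosines in the piece. The 5 most reactive in the mutant, taken at least 5 nt apart, were G1780 (2.24), G1792 (1.98), A1766 (1.77), A1756 (1.69) and A1746 (1.45). In the depleted strain they were A1756 (2.23), G1780 (1.98), A1746 (1.49), A1765 (1.45) and G1792 (1.28). The peak of the piece thus lay in the helix 45 loop in the mutant and at the decoding site in the depleted strain.

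**Figure D1:**
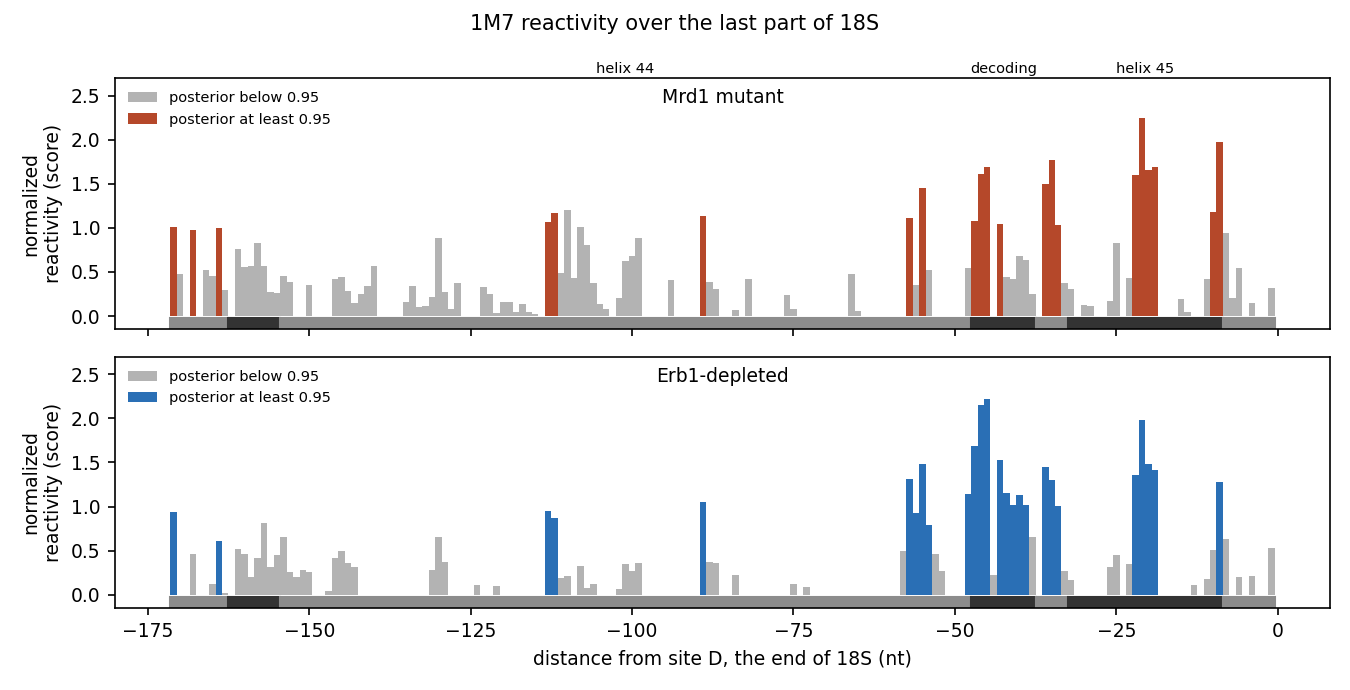
Normalized 1M7 reactivity (score, y axis) of each nucleotide of the 18S piece against its distance from site D in nt (x axis), with the mutant above and the depleted strain below. Each bar is 1 nucleotide, coloured where its posterior was at least 0.95, and the grey strips under the axis mark the elements in turn; 21 bars are coloured in the mutant and 26 in the depleted strain, mostly right of helix 44's body.

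The strains were compared on raw scores smoothed over 3 nt. To be called, a difference had to reach 1 SD of all smoothed differences on the transcript, with a Z-factor above 0, at 3 or more nucleotides of a window of 5 nt, and the nucleotide had to be modified in at least 1 strain. Differences are given as mutant minus Erb1-depleted in units of that SD and are called standardized differences. Raw scores averaged −1.355e-05 in the mutant and 3.817e-05 in the depleted strain over the transcript. A difference is therefore relative to each strain's own mean. In the 18S piece 13 nucleotides (7.60%) were called more reactive in the depleted strain, beside 5.15% over the transcript, and 0 were called more reactive in the mutant, beside 0.81%. All 13 lay between A1744 and A1762, on the 3' side of helix 44, in 3 runs.

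The second strand of the decoding end, nucleotides 1754 to 1763, was more reactive in the depleted strain at every position. Its mean normalized score was 0.787 in the mutant and 1.28 in the depleted strain, and its mean standardized difference was −2.32, with 10 of 10 nucleotides negative. Of the 10 nucleotides, 4 were modified in the mutant and 8 in the depleted strain. Its sign was the same on each of the other scales tried.

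The decoding adenosines themselves were marked strongly in both strains. A1755 had a raw score of 0.310 in the mutant and 0.495 in the depleted strain, or 1.62 and 2.15 after normalization, and a standardized difference of −2.83. A1756 had raw scores of 0.324 and 0.511, normalized scores of 1.69 and 2.23, and a difference of −2.70. Both had a posterior of 1 in either strain, so the strains differed in the size of the signal there and not in the call of modification. These bases monitor the codon and anticodon in the mature ribosome. The run around them, A1753 to A1756, had a mean normalized score of 1.23 in the mutant and 1.80 in the depleted strain. Its first member, A1753, was modified in the depleted strain alone, at 1.14 against 0.544.

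After G1757, which was modified in neither strain (0 and 0.222), a further run reached from U1758 to A1762. U1758 was modified in both strains, with normalized scores of 1.04 in the mutant and 1.53 in the depleted strain and a standardized difference of −2.49. The next 4 nucleotides were modified in the depleted strain alone. C1759 had 0.441 in the mutant and 1.15 in the depleted strain. G1760 had 0.424 and 1.01. U1761 (0.687 and 1.13) and A1762 (0.638 and 1.02) were closer, and their posteriors in the mutant were 0.261 and 0.0174. Over the run the mean was 0.647 in the mutant and 1.17 in the depleted strain.

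The third run, A1744 to G1747, lies higher up the same side of helix 44. Its mean normalized score was 0.858 in the mutant and 1.13 in the depleted strain. A1744 had 1.11 and 1.32, with the largest standardized difference of the run (−1.93). A1746 had nearly equal normalized scores, 1.45 and 1.49. G1745 and G1747 were modified in the depleted strain alone, and these were the 2 calls lost when each strain's raw scores were multiplied by its own factor. The other 11 calls of the 18S piece stayed under that scale, and 0 turned direction.

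The first strand of the decoding end, nucleotides 1639 to 1646, which lies opposite the second strand, was modified at 0 of 8 positions in both strains. Its mean normalized scores were 0.477 in the mutant and 0.397 in the depleted strain. C1639, 2'-O-methylated in mature rRNA, had a normalized score of 0 in both. A methylated 2'-oxygen offers 1M7 no hydroxyl group, but whether C1639 was methylated in these pre-ribosomes was not tested. A score of 0 was common in the 18S piece (39.2% of nucleotides in the mutant, 52.0% in the depleted strain). The mean standardized difference of the first strand was 0.03, against −2.32 on the opposite strand. It turned to −0.94 with a running median of the difference taken out.

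The 9 nt before helix 44 leaned the other way. Their mean normalized score was 0.526 in the mutant and 0.240 in the depleted strain, with a mean standardized difference of 0.83 and 9 of 9 nucleotides positive. U1630 was modified in both strains (1.01 and 0.941), as was C1637 (1.00 and 0.614). A1633 was modified in the mutant alone, at 0.976 against 0.460. No modified nucleotide among the 9 was called on raw scores. C1637 was called toward the mutant on the strains' factors, at equal SD and on normalized scores. These 3 scales all raise positive scores of the mutant against the depleted strain, so they are not independent. The mean standardized difference of the 9 nt ranged from 0.21 to 1.49 on the 4 other scales.

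The 107 nt of the helix 44 body were mostly unmarked. Modified nucleotides numbered 5 in the mutant and 8 in the depleted strain, and the mean normalized scores were 0.225 and 0.165. U1688 and A1689 were modified in both strains (1.07 and 0.952 at U1688, 1.17 and 0.874 at A1689), as was A1712 (1.13 and 1.05). In an RNAfold prediction the loop at the far end of the helix is G1699 to A1702. It held no modified nucleotide in either strain. With no filter on modification, 42 nucleotides of the body were called toward the mutant (39.3%, beside 13.7% over the transcript). Toward the depleted strain 9 were called (8.41%, a smaller share than the 11.5% over the transcript).

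Those unfiltered calls ran along the helix as stretches. Over the whole 18S piece they numbered 46 toward the mutant (26.9%, beside 13.7% over the transcript) and 20 toward the depleted strain (11.7%, beside 11.5%). The longest toward the mutant was A1701 to U1710, whose mean raw score was −0.0289 in the mutant and −0.153 in the depleted strain. Much of that difference is between scores below 0, which normalization sets to 0. G1690 to G1695 differed above 0 too, with a mean normalized score of 0.717 in the mutant and 0.154 in the depleted strain. In it A1691 had 1.20 and 0.211 and A1693 had 1.01 and 0.326, yet the posterior was below 0.95 for both in both strains. The mean standardized difference of the body was 0.60, and it turned to −0.08 when a running median of the difference was taken out.

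**Figure D2:**
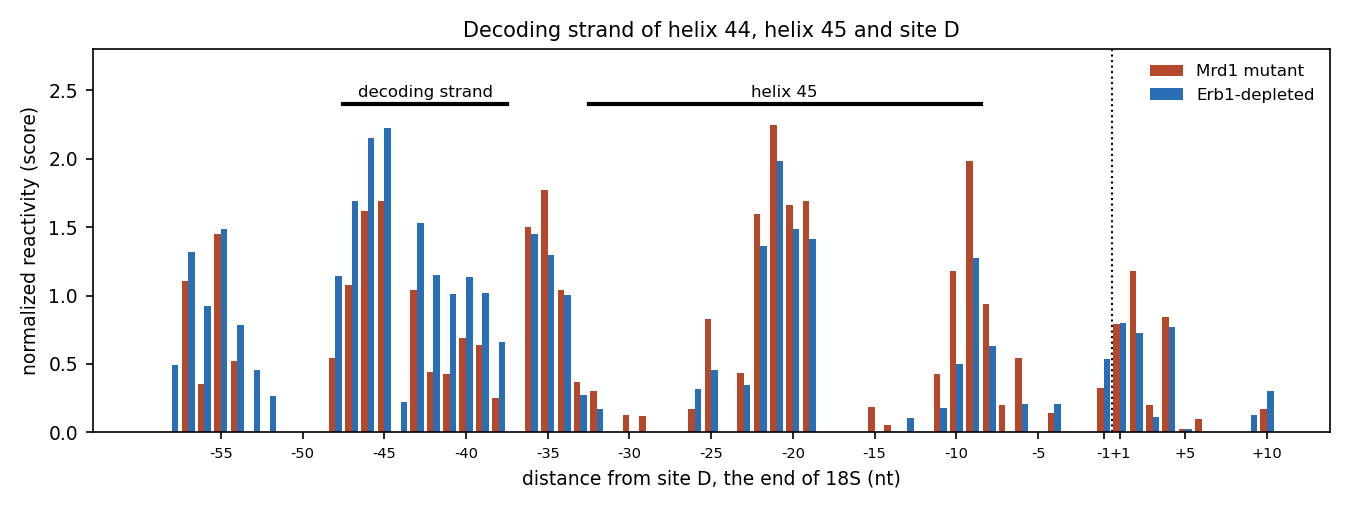
Normalized 1M7 reactivity (score, y axis) from the 3' side of helix 44 to the first nucleotides of ITS1, by distance from site D in nt (x axis), with 1 bar per nucleotide for the mutant and 1 for the depleted strain. The Erb1-depleted bars are the taller over the decoding strand (means of 1.28 and 0.787). The mutant bars are the taller over the helix 45 loop, where its raw scores were nearly equal or slightly lower. The dotted line is site D.

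The linker A1765 to G1767 between the helices was modified in both strains. A1765 had a normalized score of 1.50 in the mutant and 1.45 in the depleted strain. A1766 had 1.77 and 1.30, and G1767 had 1.04 and 1.00. The higher normalized scores of the depleted strain at the decoding strand thus did not extend to these 3 nucleotides. The mean standardized difference of the 5 nt linker was −0.28 on raw scores and turned positive on the 3 rescaled settings.

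Apart from the foot of its stem, helix 45 had the pattern of a closed stem and an open loop in both strains. Its 24 nt can form 10 base pairs, from U1769 with G1792 to G1778 with C1783, around the loop U1779 to A1782. All 4 loop nucleotides were modified in both strains, with normalized scores from 1.60 to 2.24 in the mutant and from 1.36 to 1.98 in the depleted strain. The 20 stem nucleotides had medians of 0.0841 and 0. Among them 2 were modified in the mutant and 1 in the depleted strain, all at the foot, with highest scores of 1.98 and 1.28. Within the stem, A1776 had 0.830 in the mutant and 0.455 in the depleted strain, and G1778 had 0.431 and 0.348. Neither was modified in either strain.

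The loop holds the adenosines that Dim1 dimethylates in mature 18S. A1781 had 1.66 in the mutant and 1.48 in the depleted strain, and A1782 had 1.69 and 1.41. Their raw scores were nearly equal in both strains, 0.318 and 0.341 at A1781 and 0.324 in both at A1782. Dimethylated adenosine stops reverse transcriptase without 1M7, and the part of such stops in these values was not tested. C1773, acetylated by Kre33 in mature 18S, had a normalized score of 0 in both strains.

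At the foot of helix 45 the mutant had the higher scores. A1791 had a normalized score of 1.18 in the mutant, where it was modified, and 0.502 in the depleted strain, where it was not. G1792, which can pair with U1769 as a wobble pair, had 1.98 and 1.28 and was modified in both. Neither was called on raw scores, although their standardized differences were 1.22 and 1.20. Both were called toward the mutant on all 4 other scales. Of these, the strains' factors, equal SD and normalized scores all raise positive scores of the mutant against the depleted strain. Those scales are therefore not independent of each other. For helix 45 as a whole the mean standardized difference was 0.50, or 0.75 on normalized scores, with 20 of 24 nucleotides positive.

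At site D the first adenosines of ITS1 had higher scores than the last nucleotide of 18S in both strains. The 8 nt tail of 18S held 0 modified nucleotides in either strain, with mean normalized scores of 0.269 in the mutant and 0.197 in the depleted strain. A1800, the last nucleotide of mature 18S, had 0.324 and 0.533. A1 of ITS1, on the other side of the scissile bond, had 0.793 and 0.797, with posteriors of 0.0422 and 0.593. A2 of ITS1 was modified in the mutant alone, at 1.18 against 0.728.

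Over the 20 nt that straddle site D, 3 nucleotides were modified in the mutant and 1 in the depleted strain. The mean normalized scores of the last 10 nt of 18S were 0.531 and 0.336, and those of the first 10 nt of ITS1 were 0.331 and 0.287. The mean standardized difference of the 20 nt was 0.15, with 12 positive and 8 negative, and ranged from 0.07 to 0.60 on the other scales. No nucleotide there was called on raw scores as deposited, with or without the filter on modification. A1791 and G1792 were called toward the mutant on all 4 other scales, which are not all independent.

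The ITS1 piece was marked still more sparsely, with 20 of 210 nucleotides modified in the mutant (9.52%, 6.25 to 14.3) and 22 in the depleted strain (10.5%, 7.02 to 15.4). Both strains shared 16 of them, while the mutant alone had 4 and the depleted strain alone 6. The remaining 150 nt of ITS1 had shares of 25.3% (19 to 32.8) and 30.7% (23.8 to 38.5). Of its 58 adenosines, 13 were modified in either strain. Raw scores correlated across its 210 nucleotides with a Pearson r of 0.903. The mean normalized score was 0.321 in the mutant and 0.265 in the depleted strain, beside 0.249 and 0.257 over the transcript.

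The modified nucleotides of ITS1 lay between A2 and U111 and again between A183 and A208. The 5 most reactive in the mutant, at least 5 nt apart, were C100 (1.77), A208 (1.76), A72 (1.70), A185 (1.61) and U39 (1.46). In the depleted strain they were A208 (1.61), A74 (1.56), A185 (1.40), C100 (1.34) and U39 (1.30). The lists share 4 nucleotides and differ in A72 and A74, which are neighbours. Between nucleotides 121 and 180 neither strain had a modified nucleotide, and the mean normalized scores of the 2 windows of 30 nt there were 0.100 and 0.115 for the mutant and only 0.045 and 0.0354 for the depleted strain.

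**Figure D3:**
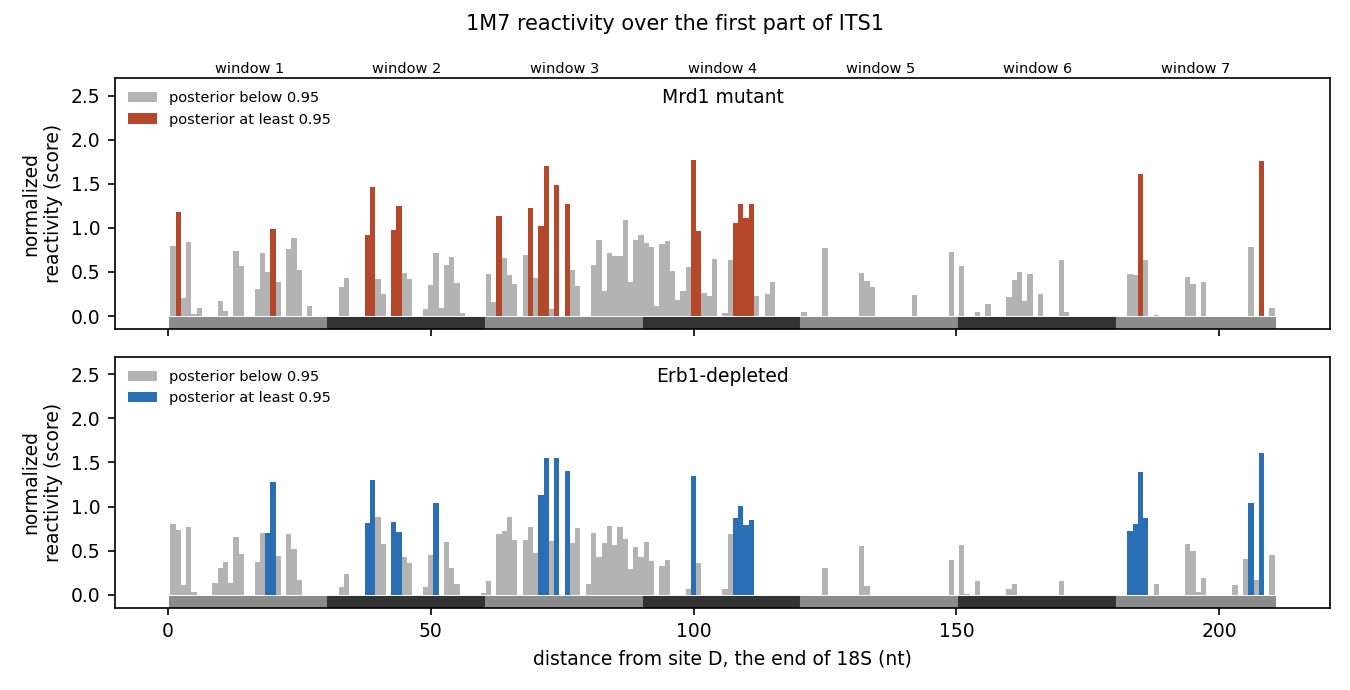
Normalized 1M7 reactivity (score, y axis) of each nucleotide of the ITS1 piece against its distance from site D in nt (x axis), drawn as for 18S, with the strips marking 7 windows of 30 nt. Windows 5 and 6 hold 0 coloured bars in either strain, and window 7 holds 2 in the mutant and 6 in the depleted strain.

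In the first 60 nt the strains were close. Window 1 had mean normalized scores of 0.328 in the mutant and 0.312 in the depleted strain, and window 2 had 0.329 and 0.294. U38 and U39, at the end of a uridine tract, were modified in both strains (1.46 and 1.30 at U39), as were A43 and A44. A20 was also modified in both, at 0.985 and 1.27. No nucleotide of these windows was called on raw scores with the filter.

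Nucleotides 61 to 90 form the most reactive window of the ITS1 piece, with means of 0.638 and 0.612. Its highest scores in both strains were those of A72 and A74, with A76 next. A72 was called toward the depleted strain on raw scores (0.326 against 0.357, standardized difference −1.11), but its normalized scores ran the other way, 1.70 in the mutant and 1.56 in the depleted strain. A74 was called in the same direction, with normalized scores of 1.49 and 1.56 and a difference of −1.39. Neither call was kept with raw scores set to equal SD, times each strain's factor, or normalized.

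From nucleotide 91 to 120 the mutant was more reactive. The mean normalized scores were 0.502 and 0.258, and the mean standardized difference was 1.20, with 28 of 30 nucleotides positive (0.64 with a running median taken out). The calls with the filter were C100 and U101, adjacent nucleotides and the 2 calls toward the mutant in the ITS1 piece (0.952%, beside 0.81% over the transcript). C100 had 1.77 in the mutant and 1.34 in the depleted strain. U101 had 0.962 and 0.357 and was modified in the mutant alone, with a difference of 1.22. Neither was called with the running median taken out. With no filter 22 of the 30 nucleotides (73.3%, beside 13.7% over the transcript) were called toward the mutant, among them the unbroken stretch G93 to C105, whose mean normalized score was 0.553 in the mutant and 0.191 in the depleted strain.

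In an RNAfold prediction C100 pairs with G116 and U101 is an unpaired bulge of the same stem. Above the bulge, G102 to C115 form 4 pairs around a loop from U106 to U111, and below it G96 to C100 pair with G116 to U120. In the loop, A108, A109, G110 and U111 were modified in both strains, and its mean normalized score was 0.9 in the mutant and 0.713 in the depleted strain. G110 and U111 were not called on raw scores. They were called toward the mutant on the strains' factors, at equal SD and on normalized scores, which all raise its positive scores against the depleted strain. None of the 8 stem nucleotides between bulge and loop was modified in either strain. Their median normalized score was 0.237 in the mutant and 0 in the depleted strain, with highest values of 0.644 and 0. C105 and C113 had a score of 0 in both strains. The other stem nucleotides between bulge and loop had scores above 0 in the mutant alone, although their posteriors stayed below 0.95.

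Windows 5 and 6 kept the lean toward the mutant, with mean standardized differences of 1.04 and 0.71. They held 13 and 9 unfiltered calls toward the mutant (43.3% and 30%, beside 13.7% over the transcript). With the running median taken out the means were 0.15 and 0.40. These were differences between low scores. In A134 to U144 the mean raw score was −0.0882 in the mutant and −0.202 in the depleted strain. Over the whole ITS1 piece unfiltered calls numbered 49 toward the mutant (23.3%, beside 13.7% over the transcript) and 10 toward the depleted strain (4.76%, beside 11.5%).

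The last window, nucleotides 181 to 210, leaned toward the depleted strain, with a mean standardized difference of −0.61 and 24 of 30 nucleotides negative (−0.34 on normalized scores). A183, U184 and G186 were modified in the depleted strain alone, at 0.723, 0.8 and 0.875 against 0.480, 0.463 and 0.632 in the mutant. A185 between them was modified in both, at 1.61 in the mutant and 1.40 in the depleted strain. None of A183 to G186 was called on raw scores. With the running median taken out all were called toward the depleted strain. A183 was also called that way on the strains' factors and at equal SD. Near the end of the piece A206 was called toward the depleted strain (0.780 against 1.04, standardized difference −1.51) and was modified there alone. A208 was called the same way on raw scores (0.337 against 0.369), while its normalized scores were 1.76 and 1.61. Together with A72 and A74 these made 4 calls toward the depleted strain (1.90%), a smaller share than the 5.15% over the transcript. The call of A208 was lost on the strains' factors, at equal SD and on normalized scores, and that of A206 on normalized scores.

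**Figure D4:**
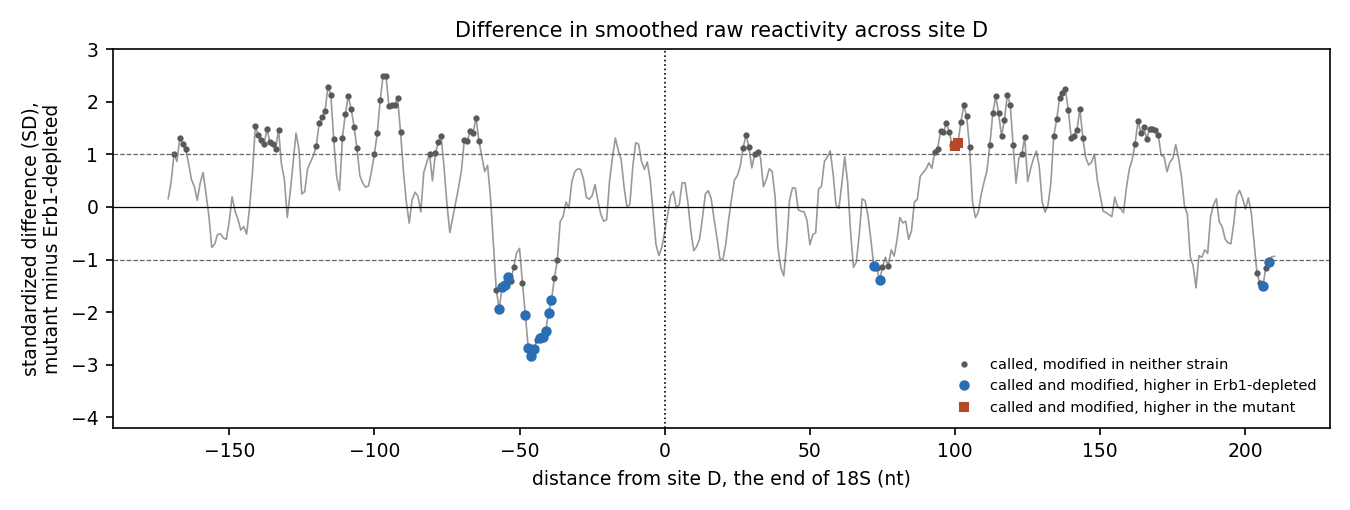
Standardized difference of smoothed raw scores, mutant minus Erb1-depleted (y axis, in SD of all smoothed differences), against distance from site D in nt (x axis). Large points are called nucleotides modified in at least 1 strain and small points calls modified in neither; the lowest point is A1755 (−2.83), and dashed lines mark 1 SD in either direction.

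Across both pieces the sign of the difference varied along the RNA. The mean was −2.32 over the decoding strand, 0.50 over helix 45, 0.06 and 0.15 over the first 2 windows of ITS1 and −0.36 over ITS1 61 to 90, where 20 of 30 nucleotides were negative. That of ITS1 61 to 90 turned to 0.013 at equal SD and 0.11 on normalized scores, and that of the first window to −0.12 with the running median taken out. It was 1.20 over ITS1 91 to 120 and negative in the last 10 nt (−0.89, or −0.58 on normalized scores, 9 of 10 nucleotides). As wholes, the 18S piece had a mean of 0.35 (118 nucleotides positive, 53 negative) and the ITS1 piece 0.31 (130 and 80). Both means turned negative, to −0.21 and −0.08, when a running median of the difference was taken out.

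Reactivity was set beside predicted pairing, from a minimum free energy fold of naked RNA that took no reactivity as input. In the 18S piece (51 pairs) the 69 nucleotides predicted unpaired had median normalized scores of 0.294 in the mutant and 0.211 in the depleted strain, and 16 (23.2%) and 17 (24.6%) were modified. The 102 predicted paired had medians of 0.0562 and 0, with 5 (4.90%) and 9 (8.82%) modified. In ITS1, folded whole, the 51 unpaired nucleotides of the piece had medians of 0.329 and 0.193, and 8 were modified in either strain (15.7%). The 159 paired had medians of 0 in both, with 12 (7.55%) and 14 (8.81%) modified. Unpaired nucleotides thus had the higher medians in both pieces and both strains, with wide overlap of single values.

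**Figure D5:**
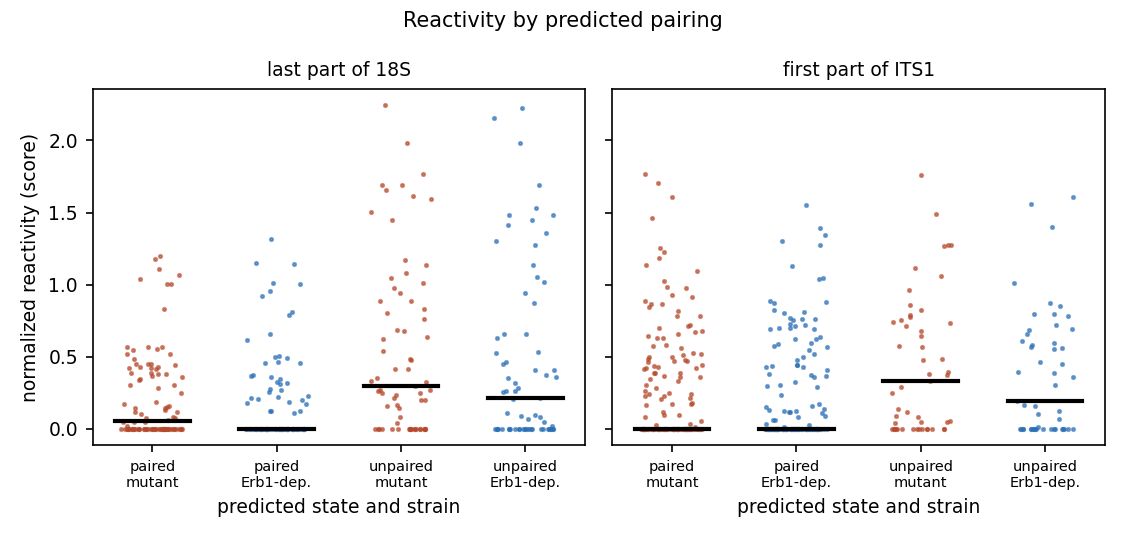
Normalized 1M7 reactivity (score, y axis) of nucleotides predicted paired or unpaired (x axis) in the mutant and the depleted strain, for the 18S and the ITS1 piece. Each point is 1 nucleotide with random sideways spread, and bars are medians; unpaired medians are higher in each case (0.294 against 0.0562 in 18S of the mutant).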

How the data were processed

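The submitters' processing notes name the aligner Novoalign. Neither its version nor a genome build is given in the sources used here. The deposited values are scores, per the file headers: for each nucleotide and strain the authors gave a raw and a normalized SHAPE reactivity score and a BUM_HMM posterior probability, and for the pair of strains smoothed scores, a Z-factor and a standardized difference. The derivation of the raw scores, and the control used after Erb1 depletion, are likewise not given. Labels give 1 DMSO and 1 1M7 library of the mutant the same 5' barcode. Libraries were not told apart in the sheet, so depth per library is unknown.

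Normalized scores equal raw scores times 5.21 (mutant) or 4.35 (Erb1-depleted), negatives set to 0. The calling rule in the report, worked out from the columns and tested on simulated data, gave 1646 calls, or 390 with the filter on modification, and 0 differed from the authors' deposited table. The deposited annotation starts ITS1 on nucleotide 2500, the last of 18S, so regions were laid end to end by length, from 2501. With these bounds all landmark bases fell on the base known from mature rRNA. The gene's chromosome was taken from RefSeq by name.

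Elements of helices 44 and 45 were placed by distance from the end of 18S, ITS1 by windows of 30 nt. Pairing was predicted with RNAfold 2.7.2; other steps used Python 3.11.15 with pandas 2.3.3, numpy 2.4.6 and scipy 1.17.1. Nucleotides named are the 5 most reactive per piece and strain, each called run with its largest difference, and landmark bases; others named beside them were chosen after their values were seen. The region, lists and alternatives were chosen with earlier results of these data known.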

Additional observations from a re-analysis of the deposited data

How the results depend on the processing

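Values were recomputed on 4 other scales: each strain's raw scores times its own factor, raw scores at equal SD, normalized scores with negatives at 0, and with a running median of the difference taken out. The first 3 all raise positive scores of the mutant against the depleted strain (factors of 5.21 and 4.35, raw SDs of 0.124 and 0.15). Agreement among them is therefore not independent. Called nucleotides toward the mutant in the 18S piece (0) became 3, 4, 9 and 2 in that order, and 46 with no filter on modification. Those toward the Erb1-depleted strain (13) became 20 with no filter. In ITS1 calls toward the mutant (2) became 4, 4, 8, 0 and 49, and those toward the Erb1-depleted strain (4) became 2, 2, 0, 13 and 10. Of the 13 calls of 18S, 11, 10, 13 and 13 were kept with their direction. Of the 6 of ITS1, 3, 3, 2 and 4 were kept. Shares called over the transcript were not worked out on these 4 scales, so these counts have no background beside them.

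The mean standardized difference turned from 0.35 to −0.206 in 18S and from 0.31 to −0.0822 in ITS1 with the running median taken out, and that of the site D junction (0.15) moved to 0.27, 0.28, 0.60 and 0.0677. Alternatives for single elements were added after seeing the data. With the running median taken out the first decoding strand turned to −0.94, the helix 44 body to −0.0831, the 18S tail to −0.0171, ITS1 1 to 30 to −0.12 and the first 10 nt of ITS1 to −0.15. The linker turned to 0.22, 0.26 and 0.58 on the first 3 scales, and ITS1 61 to 90 to 0.013 at equal SD and 0.11 on normalized scores. The cause was not tested. The second decoding strand stayed negative on each.

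Other cut-offs of the posterior (0.9 and 0.99) moved no count by over 1.5 times. No paired analysis was possible because the sheet has 1 value per strain, and for the same reason no replicate could be left out.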

Other observations

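Cytidines were seldom marked, here and over the transcript. In the 18S piece 1 of 36 (2.78%) was modified in the mutant and 2 (5.56%) after Erb1 depletion. In the ITS1 piece 1 of 32 (3.12%) was modified in either strain. Few guanosines of that piece were modified, 1 of 51 (1.96%) in the mutant and 4 (7.84%) after Erb1 depletion. In the 18S piece 3 of 47 guanosines (6.38%) were modified in the mutant and 6 (12.8%) after Erb1 depletion. Of uridines, the commonest base of the ITS1 piece (69 of 210 nucleotides), 5 (7.25%) were modified in the mutant and 4 (5.8%) after Erb1 depletion. Over the transcript, 35% of adenosines, 6.68% of cytidines, 11% of guanosines and 18.3% of uridines were modified in the mutant. After Erb1 depletion those shares were 38.4%, 5.72%, 16.4% and 19.8%. The lowest raw scores of the region were −0.310 in the mutant, in 18S, and −0.438 after Erb1 depletion, in ITS1.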
